A study of Homo sapiens with 12 samples.

Results

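FOXM1, the MYB genes MYBL1 and MYBL2, the MuvB genes LIN9, LIN37, LIN52 and LIN54, the p130 gene RBL2 and the DP genes TFDP1 and TFDP2 were followed in IMR5, an established human neuroblastoma cell line with amplification of the oncogene MYCN. They were taken by gene symbol, and all 10 were found among the 18987 genes that both deposited tables list. Selinexor cells were grown for 24 h in 100 nM of this drug, a covalent inhibitor of XPO1, which carries proteins out of the nucleus, and DMSO cells were grown in medium with the solvent, for a time that is not given. XPO1 siRNA 10 cells were nucleofected with 1 siRNA against XPO1 and control siRNA cells with a negative control siRNA, and both were harvested 72 h later. There were 3 total RNA libraries in each of the 4 groups. The labels name no separate cultures behind the replicates, so the p-values refer to the spread of these libraries alone, and that spread may be technical. All gene values are read counts as normalized by the authors, listed for replicates 1, 2 and 3 in turn.

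MuvB is a protein core that carries different partners through the cell cycle. With p130 and an E2F-DP dimer it forms the DREAM complex, which represses cell cycle genes in resting and arrested cells, and with B-MYB, the product of MYBL2, and then FOXM1 it activates the genes of G2 and mitosis. MYBL2 and FOXM1 are themselves cell cycle genes, and their transcripts are abundant in dividing cells. The p53 target p21, product of CDKN1A, keeps p130 in its DREAM-forming state by inhibiting cyclin-dependent kinases.

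DREAM reaches early cell cycle genes through E2F sites and late ones through the cell cycle homology region (CHR), to which LIN54 binds. RefSeq promoter windows of 300 bases (GRCh38.p14, 250 before the start site and 50 from it on) matched 8 members by symbol; FOXM1 and MYBL1 are named only. Shown are the member that fell most (MYBL2), a window with both kinds of motif, of the subunit that binds the CHR (LIN54, the first of its windows) and the DP pair, whose transcripts moved in opposite directions (TFDP1, and the first window of TFDP2). Capitals mark the CHR letters TTTGAA and the E2F core letters GGCGGGA or GGCGCGA on either strand, and the windows, 5′ to 3′ on the gene's strand, lie at chr20:43666864-43667163 (+ strand, MYBL2), chr4:83010774-83011073 (- strand, LIN54), chr13:113584503-113584802 (+ strand, TFDP1) and chr3:142149495-142149794 (- strand, TFDP2).
MYBL2: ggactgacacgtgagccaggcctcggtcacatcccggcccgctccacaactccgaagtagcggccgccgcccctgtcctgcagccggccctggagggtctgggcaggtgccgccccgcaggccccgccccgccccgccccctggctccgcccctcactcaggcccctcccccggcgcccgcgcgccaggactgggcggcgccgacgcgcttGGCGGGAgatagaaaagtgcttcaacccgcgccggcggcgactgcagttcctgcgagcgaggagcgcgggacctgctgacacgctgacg
LIN54: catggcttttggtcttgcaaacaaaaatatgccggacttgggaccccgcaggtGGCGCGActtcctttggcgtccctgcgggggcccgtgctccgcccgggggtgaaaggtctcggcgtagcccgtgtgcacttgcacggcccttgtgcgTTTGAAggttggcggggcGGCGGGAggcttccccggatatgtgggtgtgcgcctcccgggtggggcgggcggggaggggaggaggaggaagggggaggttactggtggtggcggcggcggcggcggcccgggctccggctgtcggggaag
TFDP1: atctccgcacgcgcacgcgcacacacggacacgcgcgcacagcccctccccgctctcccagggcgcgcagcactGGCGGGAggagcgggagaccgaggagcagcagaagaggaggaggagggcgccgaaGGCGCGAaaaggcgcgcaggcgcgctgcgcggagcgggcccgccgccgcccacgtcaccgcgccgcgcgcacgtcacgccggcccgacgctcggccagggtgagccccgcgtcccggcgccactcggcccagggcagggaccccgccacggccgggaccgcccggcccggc
TFDP2: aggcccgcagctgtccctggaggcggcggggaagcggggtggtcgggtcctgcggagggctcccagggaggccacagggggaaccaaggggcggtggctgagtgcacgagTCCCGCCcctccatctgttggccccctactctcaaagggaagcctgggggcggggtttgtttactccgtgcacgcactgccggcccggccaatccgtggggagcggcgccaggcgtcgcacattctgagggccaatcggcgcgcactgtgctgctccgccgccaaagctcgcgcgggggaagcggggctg
The MYBL2 window held 1 E2F core, 39 bases before the start site, and no TTTGAA. The LIN54 window held TTTGAA 100 bases before the start, with E2F cores 197 and 82 bases before it. TFDP1 held E2F cores 176 and 121 bases before its start, and TFDP2 held 1 at 140 bases before. Of the lists of 26 early and 30 late cell cycle targets treated further on, 22 and 26 genes had a window. Counting the first listed window of each gene, E2F cores stood in 5 of the 8 members (62.5%), against 19.2% of 27305 genes. They stood in 16 of the 22 early targets (72.7%) and in 7 of the 26 late ones (26.9%). TTTGAA stood in 2 of the 8 members (25%, LIN54 and RBL2), in 0 of 22 early targets and in 15 of 26 late targets (57.7%), against 15.4% of all genes. Members had more windows per gene (15 over 8 genes) than all genes had (35116 over 27305), which raises their share when every window counts. By that count TTTGAA stood in 5 of the 8 members, which adds LIN9, LIN37 and TFDP2, against 18.2% of all genes. It then stood in 16 of 26 late and 0 of 22 early targets. E2F cores stood in 7 of the 8 members by that count, against 22.1% of all genes, and in 17 of 22 early and 7 of 26 late targets. These are matches of letters, not tested sites, and the motifs overlapped in none of the windows shown. The early and late lists hold genes chosen as targets of these complexes, so their motif shares are no independent evidence of such a split.

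Estimated depth was 26.9 to 33.8 M reads per selinexor library, 39.5 to 40.9 M with DMSO, 33.5 to 55.8 M with XPO1 siRNA 10 and 40.6 to 54.0 M with control siRNA. The member library with the fewest reads was one of MYBL1 with selinexor, at about 108 (95% exact counting interval 88.6 to 130, counting error only). XPO1 read 4260, 4377 and 4397 in XPO1 siRNA 10 libraries and 18568, 18950 and 18908 in control siRNA libraries. With selinexor it read 15544, 22513 and 21165, and with DMSO 17886, 18899 and 18357. Selinexor replicate 1 stood apart. Its log2 values had r = 0.974 with replicate 2 and r = 0.977 with replicate 3, whereas these 2 had r = 0.991 with each other, so selinexor results were also computed without it. RN7SL1 and RN7SL2, the RNAs of the signal recognition particle, took 12.6%, 16.0% and 14.1% of the values in the selinexor libraries and 9.40 to 9.72% in the DMSO libraries. Of 10 adrenergic neuroblastoma markers 9 averaged 10 or more in each group, while S100B, DCN, PTPRC, CD3E, CD68, PECAM1 and VWF, of 14 Schwann, stromal, leukocyte and endothelial markers, were in neither table. The summed value of those markers that were listed was 818 to 1805 with selinexor, 790 to 893 with DMSO, 1077 to 1099 with XPO1 siRNA 10 and 1122 to 1365 with control siRNA, and that of the adrenergic markers 88358 to 101715, 72797 to 75520, 100974 to 107590 and 81938 to 84196 in the same groups. Of the adrenergic markers 7 of 9 tested rose in each comparison, and of the others 2 of 6 rose and 1 fell with selinexor and 2 of 4 rose and 2 fell with knockdown. Over all genes tested, 22.9% rose and 26.3% fell with selinexor, and 25.9% rose and 28.6% fell with knockdown. The part of these marker shifts in the results was not tested.

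With selinexor, 7 of the 10 members fell and 1 rose (limma on log2(value + 1), Benjamini-Hochberg adjusted p under 0.05). The factors that drive late cell cycle genes fell most, MYBL2 to 15.1% and FOXM1 to 30.1% of their DMSO levels, while TFDP2 rose 1.65-fold and RBL2 and LIN37 did not pass. Of all 18128 genes tested, 26.3% fell and 22.9% rose. The members' median log2 fold change was -0.99, against -0.01 over all genes tested. For 8 members the libraries of both groups did not overlap, which held for 61.7% of all genes. With XPO1 siRNA 10, 7 members fell and 2 rose, where 28.6% and 25.9% of 17616 genes did so, and the members' median was -0.31, against 0.0024 over all genes. For 9 members the knockdown libraries did not overlap, as for 60.4% of all genes. With libraries rescaled to equal totals, 62.4% of all knockdown calls were rises, in place of 47.5%, while among members LIN9 lost its call and LIN37 gained one. In bulk RNA, fewer cells in a phase of the cycle and less RNA per cell cannot be told apart.

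**Figure D1:**
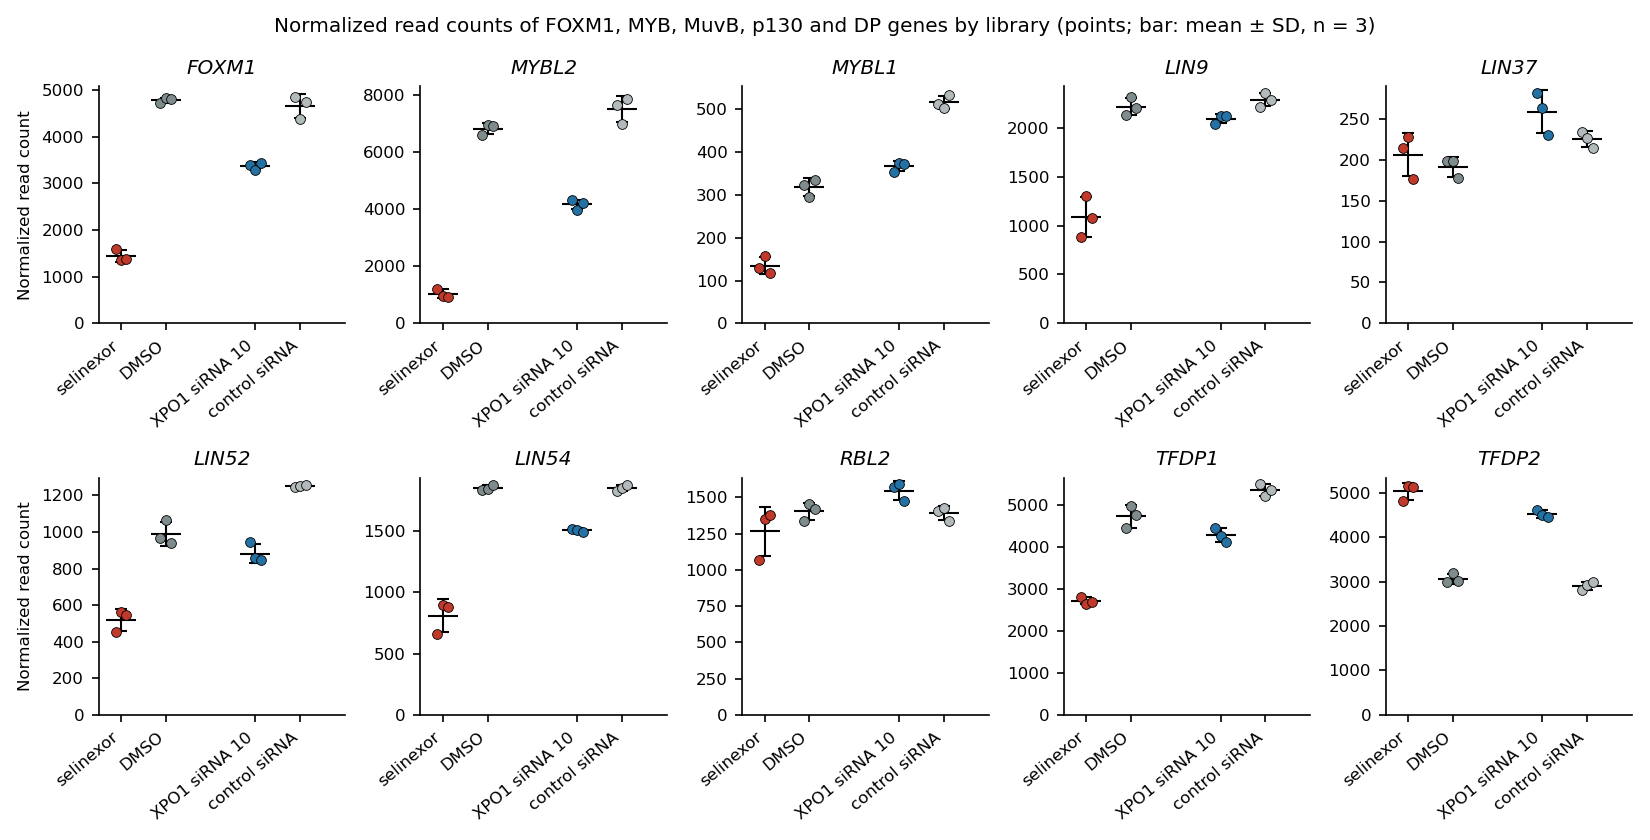
Normalized read count (y axes, each from 0) of the 10 genes in the 12 libraries; points are libraries, bars the mean ± SD of 3. With selinexor FOXM1 sits between 1353 and 1589, below all other libraries, and TFDP2 sits higher in both treated groups than in their controls.

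FOXM1 (hg19 chromosome 12, 2966847 to 2986207) encodes a forkhead factor that activates mitotic genes. It read 1589, 1353 and 1380 in selinexor libraries, against 4708, 4822 and 4797 in DMSO libraries, and 3399, 3291 and 3437 in XPO1 siRNA 10 libraries, against 4845, 4368 and 4743 in control siRNA libraries. Each treated group lay below its control with no overlap. The log2 fold change was -1.73 (SE 0.0872, limma adjusted p = 2.95e-06) with selinexor and -0.46 (SE 0.0422, limma adjusted p = 8.09e-07) with knockdown. By log2 fold change, 1.49% of genes tested lay lower with selinexor and 10.5% with knockdown. Among members, LIN52 (-0.51) and MYBL1 (-0.49) had slightly lower values than FOXM1 with knockdown, and MYBL2 (-0.85) had the lowest. The start of FOXM1 overlaps RHNO1, a gene on the opposite strand that encodes a DNA damage checkpoint protein and runs from 2985424 to 2998627. RHNO1 read 476, 741 and 658 with selinexor and 1885, 1961 and 1921 with DMSO, a log2 fold change of -1.64 (SE 0.152), and -0.48 (SE 0.0387) with knockdown. At its other end FOXM1 overlaps ITFG2, also on the opposite strand, which passed in neither comparison (limma adjusted p = 0.191 with selinexor and 0.108 with knockdown). Whether strand was used in counting is not given in the sources used here, so reads in these overlaps cannot be assigned.

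MYBL2 (chromosome 20, 42295754 to 42345137), which encodes B-MYB, read 1218, 967 and 919 in selinexor libraries, against 6582, 6947 and 6916 in DMSO libraries. In XPO1 siRNA 10 libraries it read 4308, 3980 and 4204, against 7652, 6978 and 7852 in control siRNA libraries. This was the largest change of any member in both comparisons, with log2 fold changes of -2.73 (SE 0.113, limma adjusted p = 1.07e-06) and -0.85 (SE 0.0459, limma adjusted p = 5.51e-09). Only 0.199% of genes tested with selinexor had a lower log2 fold change, and 2.50% with knockdown.

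MYBL1 (chromosome 8, 67474410 to 67526483), which encodes the related factor A-MYB, best known for its role in spermatocytes, was the member with the lowest level per length in all 4 groups. It read 129.6, 157 and 118 with selinexor, against 324, 295 and 336 with DMSO, and 354, 376 and 373 with XPO1 siRNA 10, against 512, 503 and 534 with control siRNA. It too fell without overlap, with log2 fold changes of -1.24 (SE 0.137) and -0.49 (SE 0.0647). Within each library, the log2 ratio of MYBL2 to MYBL1 was 3.22, 2.61 and 2.95 with selinexor and 4.34, 4.55 and 4.36 with DMSO, a difference of -1.49. With XPO1 siRNA 10 it was 3.50 ± 0.10, and with control siRNA 3.86 ± 0.06 (SD, n = 3), a difference of -0.36. MYBL2 thus changed more than MYBL1 in both, with no overlap of libraries, and the two-sided exact permutation p was 0.1 in each, the smallest that 3 against 3 allow (adjusted p = 0.1 over 6 ratio comparisons).

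Of the 4 LIN genes of MuvB, LIN9, LIN52 and LIN54 fell in both comparisons and LIN37 passed in neither. LIN9 (chromosome 1, 226418850 to 226497571), which with LIN52 forms the part that binds B-MYB, read 888, 1299 and 1079 in selinexor libraries, against 2136, 2315 and 2201 in DMSO libraries. That fall, of 1.04 on the log2 scale (SE 0.134, limma adjusted p = 0.000384), was 0.90 without selinexor replicate 1, the lowest library. In XPO1 siRNA 10 libraries LIN9 read 2043, 2126 and 2117, against 2218, 2354 and 2287 in control siRNA libraries, so that the log2 fold change was -0.13 (SE 0.04, limma adjusted p = 0.0165). The knockdown groups did not overlap, but the call was lost without XPO1 siRNA 10 replicate 1 (limma adjusted p = 0.0573), without control siRNA replicate 2 (0.051), with no intensity trend (0.0519) and with libraries rescaled to equal totals, which gave -0.04 (limma adjusted p = 0.489).

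LIN52 (chromosome 14, 74551499 to 74667937), the subunit whose phosphorylation by the kinase DYRK1A lets MuvB bind p130, read 452, 562 and 547 with selinexor, against 964, 1065 and 939 with DMSO. With XPO1 siRNA 10 it read 945, 855 and 846, against 1245, 1253 and 1257 with control siRNA. It fell in both without overlap, with log2 fold changes of -0.93 (SE 0.111) and -0.51 (SE 0.0523).

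LIN54 (chromosome 4, 83831126 to 83934080), the DNA-binding subunit that recognises the CHR, read 656, 896 and 876 with selinexor, against 1835, 1844 and 1875 with DMSO. It read 1518, 1511 and 1493 with XPO1 siRNA 10, against 1823, 1851 and 1871 with control siRNA. The log2 fold changes were -1.21 (SE 0.125), or -1.06 without selinexor replicate 1, and -0.29 (SE 0.0393). THAP9, on the opposite strand, shares part of the LIN54 locus and had log2 fold changes of -0.66 (SE 0.17) and -0.18 (SE 0.0619).

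LIN37 (chromosome 19, 36239262 to 36245421), a subunit needed for repression by DREAM but not for activation with B-MYB, was the exception. It read 215, 228 and 177 with selinexor, against 199, 199 and 178 with DMSO, and the groups overlapped (log2 fold change 0.10, SE 0.132, limma adjusted p = 0.557, and 0.02 to 0.21 when each library was left out). With XPO1 siRNA 10 it read 282, 264 and 230, against 234, 227 and 215 with control siRNA, again with overlap (log2 fold change 0.19, SE 0.0946, limma adjusted p = 0.0984). The knockdown value passed without XPO1 siRNA 10 replicate 3 (0.28, limma adjusted p = 0.0309) and with equal totals (0.28, limma adjusted p = 0.0187). AC002398.9 overlaps LIN37 on the same strand and was listed at 0.405 to 152 in the selinexor table and 1.66 to 26.6 in the knockdown table, so how reads were split between them is uncertain.

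RBL2 (chromosome 16, 53467889 to 53525562) encodes p130, the pocket protein that makes MuvB a repressor. It read 1070, 1355 and 1375 in selinexor libraries, against 1338, 1456 and 1417 in DMSO libraries. The value of -0.16 (log2, SE 0.113, limma adjusted p = 0.278) was -0.04 without selinexor replicate 1. In XPO1 siRNA 10 libraries it read 1575, 1592 and 1474, against 1410, 1426 and 1337 in control siRNA libraries. That rise of 0.15 (SE 0.047, limma adjusted p = 0.0138), with no overlap, was lost without XPO1 siRNA 10 replicate 2 (limma adjusted p = 0.0688), without control siRNA replicate 3 (0.0634) and with no intensity trend (0.0507). The end of RBL2 overlaps AKTIP on the opposite strand, which passed in neither comparison (limma adjusted p = 0.142 with selinexor and 0.199 with knockdown). Rows named Y_RNA (794 to 2961 in the selinexor table and 2035 to 3175 in the knockdown table, same strand) and SNORA79 (364 to 2045 and 1159.7 to 1562, opposite strand) also span RBL2 and LIN52, but each is listed over a long stretch of its chromosome, so their reads cannot be placed at these genes.

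The log2 ratio of FOXM1 to RBL2 sets the RNA of the activating factor against that of the repressing partner. This ratio does not measure p130 activity, and it mostly restates the fall of FOXM1, since RBL2 moved by only -0.16 and 0.15. It was 0.57, -0.0014 and 0.0049 with selinexor and 1.81, 1.73 and 1.76 with DMSO, a difference of -1.58. It was 1.11, 1.05 and 1.22 with XPO1 siRNA 10 and 1.78, 1.61 and 1.83 with control siRNA, a difference of -0.61. Treated and control libraries did not overlap in either table (two-sided exact permutation p = 0.1 for each, the smallest possible).

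The DP genes encode the dimer partners of E2F factors, in DREAM and outside it, and they moved in opposite directions. TFDP1 (chromosome 13, 114239013 to 114295786) read 2816, 2646 and 2692 with selinexor, against 4442, 4983 and 4756 with DMSO, and 4448, 4269 and 4118 with XPO1 siRNA 10, against 5510, 5209 and 5351 with control siRNA. Its log2 fold changes were -0.80 (SE 0.0796, limma adjusted p = 0.000101) and -0.32 (SE 0.0384, limma adjusted p = 8.91e-06). TFDP2 (chromosome 3, 141663277 to 141868387) read 4823, 5153 and 5147 with selinexor, against 2989, 3187 and 3013 with DMSO, and 4628, 4500 and 4462 with XPO1 siRNA 10, against 2806, 2921 and 2991 with control siRNA. It rose by 0.72 (SE 0.0758, limma adjusted p = 0.000136) and by 0.64 (SE 0.0371, limma adjusted p = 1.05e-08). No library of a treated group overlapped its control for either gene. On the same strand TFDP2 overlaps RP11-343B5.1, listed at 24.8 to 109 in the selinexor table and 22.6 to 39.4 in the knockdown table. It also overlaps RP11-271K21.11 there, at 0.00347 to 11.9 and 2.63 to 21.8, so how reads were split between these genes is uncertain.

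The log2 ratio of TFDP1 to TFDP2 was below 0 in every treated library and above 0 in every control library. It was -0.78, -0.96 and -0.93 with selinexor, against 0.57, 0.64 and 0.66 with DMSO, and -0.06, -0.08 and -0.12 with XPO1 siRNA 10, against 0.97, 0.83 and 0.84 with control siRNA. These differences of -1.52 and -0.97 each had a two-sided exact permutation p of 0.1, the smallest possible, and, apart from the pseudocount, a ratio within a library does not depend on how libraries were scaled. The 0 line compares counts not corrected for gene length, so it says nothing of which gene is the more abundant.

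**Figure D2:**
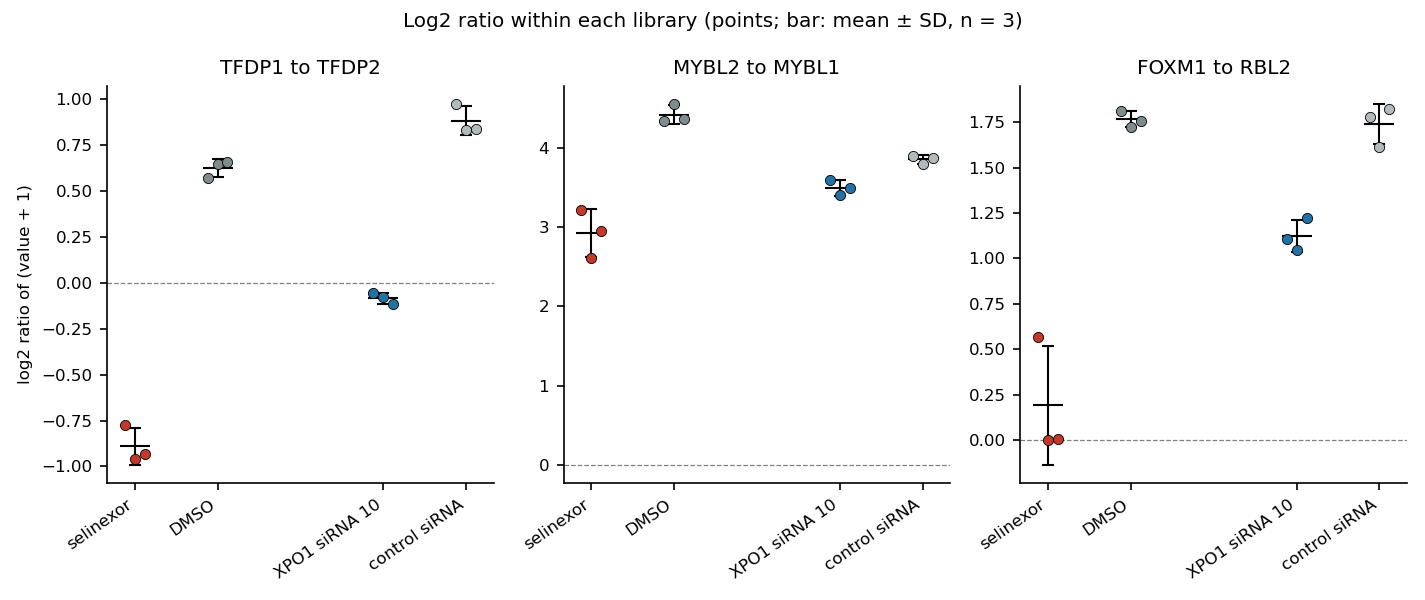
Log2 ratio of (value + 1) for 3 pairs of genes (y axes) in each library, with mean ± SD of 3; exact permutation p = 0.1 in each of 6 comparisons. TFDP1 to TFDP2 lies between -0.96 and -0.78 with selinexor and between 0.57 and 0.66 with DMSO.

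Levels were compared between members per kilobase of merged exon length (GENCODE 29, which is not the annotation of the hg19 files). This length merges all listed exons of a gene, 11897 bases for TFDP2 and 2777 for MYBL2. Exons not used in these cells would lower a gene's value, so the order between genes is approximate. With selinexor TFDP1 stood first at 727 ± 23.4 per kb, followed by TFDP2 at 424 ± 15.9, MYBL2 at 373 ± 57.9, FOXM1 at 294 ± 26.3 and LIN9 at 245 ± 46.3 (SD, n = 3). With DMSO MYBL2 stood first at 2454 ± 72.8 per kb, followed by TFDP1 at 1264 ± 72.6, FOXM1 at 975 ± 12.2, LIN9 at 499 ± 20.4 and LIN54 at 274 ± 3.06. MYBL2 thus held the third place with selinexor and the first with DMSO, and TFDP2 the second and the seventh. With selinexor, TFDP2 and MYBL2 overlapped, as did FOXM1 and LIN9, RBL2 (173 ± 23.3) and LIN52 (141 ± 16.1), and LIN52 and LIN54 (120 ± 19.7). With DMSO, LIN52 (268 ± 18.1) overlapped both LIN54 and TFDP2 (257 ± 9.10), which did not overlap each other.

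With XPO1 siRNA 10 the order began with MYBL2 at 1499 ± 60.3 per kb, TFDP1 at 1144 ± 44.2, FOXM1 at 689 ± 15.4, LIN9 at 472 ± 10.3 and TFDP2 at 381 ± 7.30. With control siRNA it began with MYBL2 at 2699 ± 165, TFDP1 at 1432 ± 40.3, FOXM1 at 950 ± 51.3, LIN9 at 515 ± 15.3 and LIN52 at 339 ± 1.60. No neighbours in the order overlapped in these 2 groups. LIN37 (73.2 ± 9.40 with selinexor, 68.0 ± 4.32 with DMSO, 91.7 ± 9.33 with XPO1 siRNA 10 and 79.9 ± 3.39 with control siRNA) and MYBL1 (18.6 ± 2.81, 44.0 ± 2.92, 50.8 ± 1.61 and 71.3 ± 2.16 in the same groups) came last throughout.

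Effects of drug and knockdown were compared in 1 fit of 12 libraries, in which each effect is taken against its own control. Both the agent and the time differ between them. For 7 members the selinexor effect was the lower, where 20.2% of 17332 genes were lower and 11.6% higher. The difference was -1.88 for MYBL2 (SE 0.128, limma adjusted p = 4.23e-07), -1.27 for FOXM1 (SE 0.0953, limma adjusted p = 8.79e-07), -0.92 for LIN9 (SE 0.146) and -0.91 for LIN54 (SE 0.134). It was -0.75 for MYBL1 (SE 0.145), -0.47 for TFDP1 (SE 0.0835) and -0.42 for LIN52 (SE 0.123, limma adjusted p = 0.019), all on the log2 scale. The difference for LIN52 was lost without DMSO replicate 2 (limma adjusted p = 0.0551) or XPO1 siRNA 10 replicate 1 (0.0542).

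For TFDP2 the difference was 0.08 (SE 0.0769, limma adjusted p = 0.47), so its rise was not shown to differ between drug and knockdown. LIN37 differed by -0.10 (SE 0.16, limma adjusted p = 0.682), and its sign was not stable, with values of -0.18 to 0.01 when each library was left out, the highest of them without selinexor replicate 3. RBL2 differed by -0.31 (SE 0.124, limma adjusted p = 0.0742), and did not pass. Without selinexor replicate 1, the library that stood apart, it shrank to -0.19 but passed (limma adjusted p = 0.0372). Without replicate 2 it was -0.36 (limma adjusted p = 0.0385), without replicate 3 it was -0.37 (0.0358), and with equal totals -0.32 (0.0314).

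**Figure D3:**
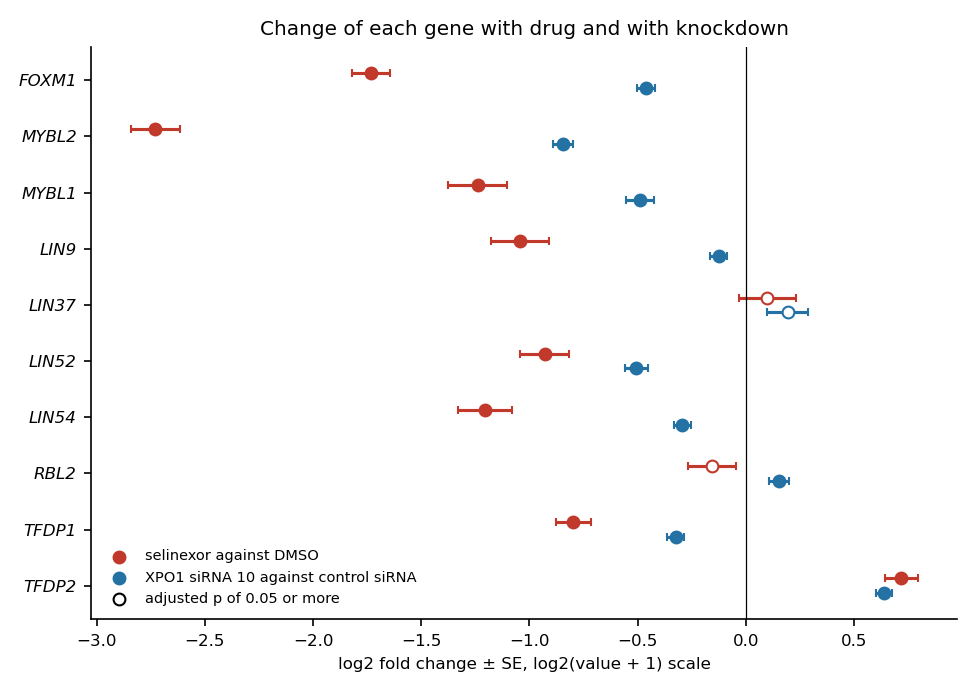
Log2 fold change ± SE (x axis) of each gene with selinexor and with XPO1 siRNA 10; open circles have an adjusted p of 0.05 or more. MYBL2 lies at -2.73 and -0.85, LIN37 has open circles in both comparisons and TFDP2 lies at 0.72 and 0.64.

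Of the other DREAM subunits, RBBP4 (a histone-binding MuvB subunit), E2F4 and RBL1 (p107, the relative of p130) fell with selinexor, and E2F5 was not called (-0.40, limma adjusted p = 0.0928). RBL1 averaged 434 ± 26.6 with selinexor and 1274 ± 35.3 with DMSO, a log2 fold change of -1.55 (SE 0.088), against -0.72 for E2F4 (SE 0.0967) and -0.70 for RBBP4 (SE 0.0943). E2F5 read 619 in selinexor replicate 1 and 1000 and 987 in replicates 2 and 3, against 1084 to 1176 with DMSO, and all 4 subunits were called without replicate 1. With knockdown all 4 fell, with log2 fold changes of -0.50 to -0.16. Among all genes tested, 26.3% fell with selinexor and 28.6% with knockdown.

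Among paralogs of the members, MYB, the founding member of its family, fell to 94.6 ± 7.32 with selinexor, against 376 ± 20.0 with DMSO, and to 413 ± 37.1 with XPO1 siRNA 10, against 518 ± 25.7 with control siRNA. The retinoblastoma gene RB1 was called in neither (log2 fold change -0.36, limma adjusted p = 0.0947, and 0.02, limma adjusted p = 0.616). MTL5, a paralog of LIN54, fell with knockdown (-0.69, limma adjusted p = 0.00214) and had a value of 0.05 with selinexor (limma adjusted p = 0.863). Of 6 paralogs listed 4 were tested, RBL1 among them, and 2 fell with selinexor and 3 with knockdown, where 26.3% and 28.6% of all genes did so.

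Of 12 regulators of DREAM assembly 11 were tested, and 3 rose and 7 fell with selinexor, with 4 and 5 in knockdown. Over all genes tested, 22.9% rose and 26.3% fell with selinexor, and 25.9% and 28.6% with knockdown. The median log2 fold change of the regulators was -0.48 with selinexor and 0.01 with knockdown, so as a list they did not move 1 way in knockdown. CDKN1A averaged 27373 ± 1930 with selinexor and 633 ± 33.2 with DMSO, and 15552 ± 470 with XPO1 siRNA 10 and 688 ± 28.5 with control siRNA. CDK2, a kinase that phosphorylates p130, had log2 fold changes of -1.48 (SE 0.127) and -0.53 (SE 0.0387), and CCNE2, which encodes its partner cyclin E2, of -2.35 (SE 0.13) and -0.26 (SE 0.0685). The cyclin D1 gene CCND1 rose 1.59-fold with selinexor, and with knockdown to 39790 ± 457, against 19896 ± 391 with control siRNA. DYRK1A fell with selinexor (-0.48, SE 0.0984, limma adjusted p = 0.00426) and was not called with knockdown (0.01, SE 0.0409, limma adjusted p = 0.783), with a difference of -0.49 between them (limma adjusted p = 0.00372).

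All 30 genes of a list of late cell cycle targets of B-MYB-MuvB and FOXM1 fell with selinexor, with a median log2 fold change of -1.66. Of all genes tested 26.3% fell, and the median over all was -0.01. The mitotic kinase gene AURKB averaged 442 ± 17.0 with selinexor and 2207 ± 35.9 with DMSO, and the survivin gene BIRC5 3807 ± 223 with selinexor and 12608 ± 287 with DMSO. The spindle checkpoint gene BUB1B fell 3.35-fold and the kinesin gene KIF2C 3.48-fold. With knockdown 28 fell and 2 rose, with a median of -0.50. Of all genes 28.6% fell and 25.9% rose with knockdown, with a median of 0.0024. CCNA2, which encodes cyclin A, averaged 4457 ± 84.1 with XPO1 siRNA 10 and 7785 ± 216 with control siRNA, and AURKB 1669 ± 43.5 with XPO1 siRNA 10 and 3053 ± 64.5 with control siRNA.

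The 2 that rose with knockdown, named after their values were seen, were the kinetochore genes CENPE (log2 fold change 0.33, SE 0.0801, limma adjusted p = 0.00336) and CENPF (0.21, SE 0.0653, limma adjusted p = 0.0158). CENPE read 3791, 3814 and 3741 with XPO1 siRNA 10, against 2512, 3218 and 3378 with control siRNA, where replicate 1 was the lowest. CENPF read 43403, 47158 and 46677 with XPO1 siRNA 10, against 34906, 40324 and 44109 with control siRNA, and the groups overlapped. Both calls were lost with no intensity trend, and 1 of the 2 without XPO1 siRNA 10 replicate 2 or 3 or control siRNA replicate 1.

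Each of 26 early cell cycle targets of E2F and DREAM fell in both comparisons, with medians of -2.07 with selinexor and -0.52 with knockdown. Of all genes tested, 26.3% fell with selinexor and 28.6% with knockdown, with medians of -0.01 and 0.0024. The DNA replication gene CDC6 averaged 565 ± 33.0 with selinexor and 3751 ± 112 with DMSO, while ORC1, MCM4 and CDC45, which also act in the start of DNA replication, fell 5.46-fold, 5.35-fold and 6.42-fold. With knockdown the largest fall of those named belonged to GINS2, a subunit of the replicative helicase, at 629 ± 25.7 with XPO1 siRNA 10 and 1276 ± 53.2 with control siRNA. MCM6 and GINS1, of the same helicase, fell 1.82-fold and 1.78-fold. For all 30 late and 26 early targets the selinexor effect was the lower in the joint fit, with median differences of -1.20 and -1.43, against -0.07 over all genes. It was the lower for 20.2% of all genes tested in that fit. Both lists were chosen with the fall of such genes in these data known, so they are no independent evidence of its direction.

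**Figure D4:**
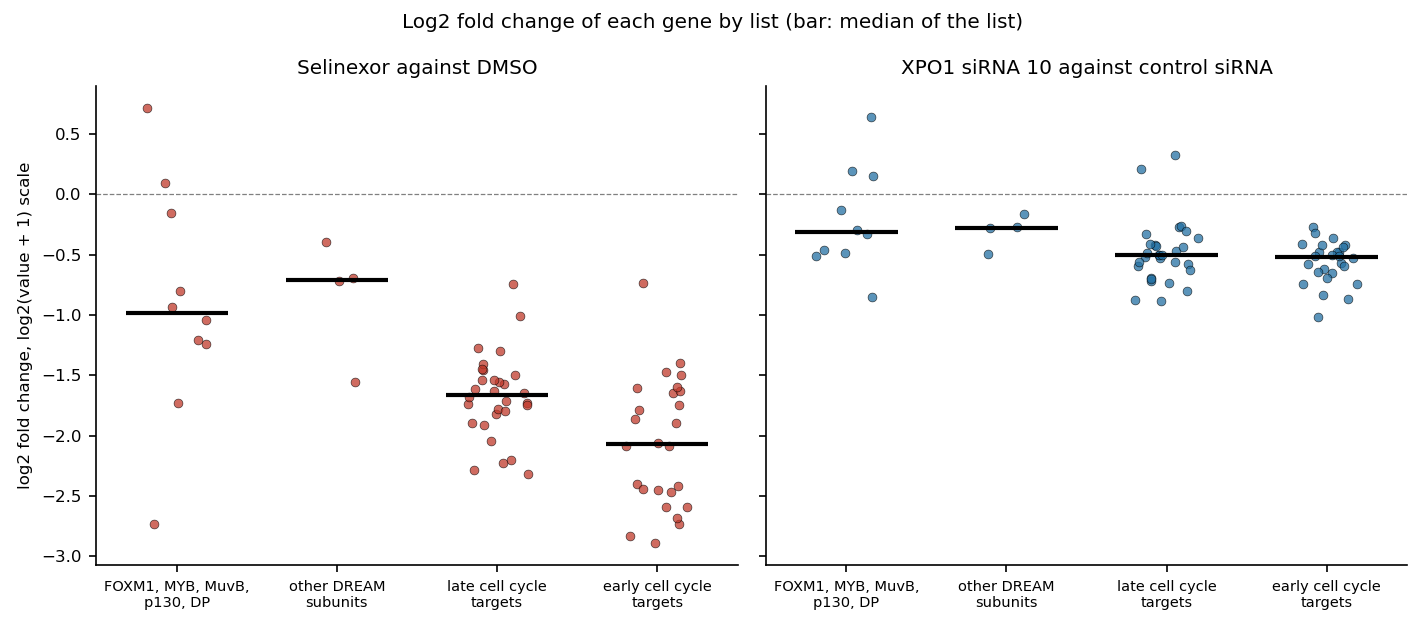
Log2 fold change (y axis) of every tested gene in 4 lists with selinexor and with XPO1 siRNA 10; points are genes and bars list medians. All late and early targets lie below 0 with selinexor, and of both target lists only CENPE and CENPF lie above 0 with XPO1 siRNA 10.

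The genes most like FOXM1, MYBL2 and RBL2 were sought among 11673 others that averaged 100 or more in both tables, by the root mean square difference of log2 values, each taken against its own table's control mean, over 12 libraries. Nearest to FOXM1 were GTSE1, a microtubule-associated protein gene of G2 (0.0556), E2F1 (0.0616) and MCM2 (0.0679). Nearest to MYBL2 were the replication gene MCM10 (0.0971), the thymidine kinase gene TK1 (0.101) and CDC45 (0.13). Nearest to RBL2 were MRPS30 (0.0415), UBE4A (0.0461) and DHX40 (0.0485), which encode a mitochondrial ribosomal protein, a ubiquitin ligase and an RNA helicase. The libraries share their controls and the treatment contrast, so these values describe likeness only.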

How the data were processed

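Libraries of total RNA were made with a strand-specific kit, per the labels' protocols. The tools named per the submitters' processing notes are DESeq2, Partek and STAR 2.7.3a, with the hg19 build, while annotation and counting options were not given in the sources used here. What the authors deposited is a signal: read counts per gene divided by a size factor for each library, in a selinexor table of 20029 genes and, normalized apart, a knockdown table of 19610. In the knockdown table, 3 columns belong to no sample analysed here and were left unused; 25 symbols turned into dates there were restored by coordinates.

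Each library's values came in steps of about 1 read, which gave the estimated reads. Of low values (0.3 to 60), 61.7% to 66.6% per library lay within 0.02 of a whole step, so whole reads were not recovered and no count model was fitted. Genes averaging 10 or more were tested within each table with limma 3.58.1 in R 4.3.3 on log2(value + 1), by lmFit and a trended eBayes, with two-sided p-values, Benjamini-Hochberg adjusted over all genes, threshold 0.05; fold changes understate low genes. The fit was tested on simulated data with the same dispersion for every gene and library. The selinexor libraries were less even than that, so the simulation does not test the fit at their spread. Python 3.11.15 and pandas 2.3.3 made tables, and matplotlib 3.10.9 figures. Members, gene lists and tests were chosen with earlier results of these data known. Besides the members, the 4 called genes of smallest p per list and comparison and the 3 genes nearest to FOXM1, MYBL2 and RBL2 could be named. Other named genes of the lists, and RHNO1, ITFG2, THAP9, AKTIP and the other genes that overlap members, were named after their values were seen. A gene that the rule names is not reported here. Alternatives were pseudocounts of 0.5 and 5, no filter or a mean of 50, 2 rescalings, each replicate left out, a replicate block and no intensity trend.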

Additional observations from a re-analysis of the deposited data

Results flagged for a closer look

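For 7 members the effects of selinexor and of XPO1 siRNA 10, each against its own control, differed by the test of the difference in limma (adjusted p under 0.05). Of all 17332 genes tested, the selinexor effect was lower for 20.2% and higher for 11.6%. The selinexor effect minus the XPO1 siRNA 10 effect, on the log2 scale, was -1.88 for MYBL2, -1.27 for FOXM1, -0.92 for LIN9, -0.91 for LIN54, -0.75 for MYBL1, -0.47 for TFDP1 and -0.42 for LIN52. Agent and time differ between the comparisons, so their parts cannot be told apart.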

How the results depend on the processing

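Over the alternatives, 464 of 480 recomputed member values kept their direction and their side of the threshold, 9 lost the call, 7 gained it and 0 reversed; apart from those given beside RBL2, LIN9, LIN37 and LIN52, none changed a call. Of members, 7 fell and 1 rose with selinexor under every alternative. With knockdown 1 to 3 rose and 6 to 7 fell when each replicate was left out, and 1 rose with no intensity trend. With equal totals, 52.7% of all selinexor calls and 62.4% of knockdown calls were rises, in place of 46.5% and 47.5%, and the median of all genes shifted by 0.08 and 0.09. Leaving out each replicate moved the ratio differences to -1.64 to -1.33 and -0.41 to -0.31 for MYBL2 to MYBL1, -1.57 to -1.48 and -0.99 to -0.92 for TFDP1 to TFDP2, and -1.76 to -1.48 and -0.68 to -0.57 for FOXM1 to RBL2, for selinexor and knockdown in that order. Same-numbered libraries deviated together at correlations of -0.10 to 0.12, and not every library was closest to its own number, so the numbers do not pair samples. With a replicate block RBL2 passed in the difference of effects (-0.31, adjusted p = 0.0484), and no other member changed its call. Relative counting error is largest for MYBL1 and LIN37, the members with the fewest reads. With selinexor their SEs (0.137 and 0.132) were nevertheless close to that of LIN9 (0.134), which had more reads.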
